A study of Homo sapiens with 12 samples.

Results

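The genes described here are the DNA-binding factors of the WNT pathway and the proteins that switch them between repression and activation. They were chosen by name: the factors TCF7, LEF1, TCF7L1 and TCF7L2, the corepressors TLE1, TLE2, TLE3 and TLE4, and the coactivators BCL9 and BCL9L. The choice was made with earlier results of these data known, so counts of members called are not independent evidence. All 10 had a row among the 25528 rows of the authors' deposited expression table. The 12 RNA-seq libraries, in 4 groups of 3, came from HT-29, a human cell line established from a colon adenocarcinoma and labelled APC mutant. In one arm, cells carried a lentiviral open reading frame for GFP, the control, or for CTNNB1, and were collected 2 days after infection. In the other arm, cells carried the control hairpin shNT1 or the hairpin shAPC against APC, and collection followed 1 day of doxycycline at 2 µM. All groups share the mutant APC of the line and a lentiviral infection, and the labels do not say whether the 3 libraries of a group came from separate cultures, so p-values measure only the spread between these libraries.

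TCF/LEF proteins sit on WNT target genes and recruit TLE corepressors when the pathway is off. When beta-catenin, the product of CTNNB1, escapes degradation by the complex that contains APC, it binds the TCF/LEF proteins, and BCL9 or BCL9L links it to the PYGO coactivators. In colon epithelium TCF7L2 is known as the main factor of the family, and TCF7 and LEF1 are best known from T cells. TCF7 and AXIN2 are also known as targets of the pathway itself.

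Levels are given in TPM, a share of all transcripts that is corrected for transcript length, so levels of different genes can be set beside each other. The TPM of each library summed to 1e+06, so the reads behind a value are unknown. Per library, 14756 to 16186 genes lay above 0. Of 9 colon epithelial markers, 8 had a mean of at least 1 TPM, while CDX2 lay between 0.163 and 0.875 TPM. The 7 T cell markers summed to at most 0.503 TPM in any library, with CD3E, CD8A and CD2 at 0 in all 12. The 6 fibroblast markers summed to at most 1.6 TPM and the 4 endothelial markers to at most 0.478 TPM. The targeted gene APC had a mean of 5.99 ± 0.56 TPM in shAPC against 16.4 ± 0.8 in shNT1 (SD, n = 3 each). The CTNNB1 row had a mean of 160 ± 4.2 TPM with the CTNNB1 vector against 146 ± 2.9 with GFP (SD, n = 3 each), which did not pass the test (log2 fold change 0.13, SE 0.04, limma adjusted p = 0.0587). AXIN2, the target used as a readout of the pathway, averaged 39.2 ± 1.9 TPM in GFP, 81.6 ± 1.5 in CTNNB1, 29.9 ± 1.8 in shNT1 and 92.1 ± 3.9 in shAPC (SD, n = 3 each).

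Expression of the family was carried by 7 of its 10 genes. TCF7L2 had the highest mean in every group, BCL9L, TLE1 and TCF7 followed in an order that changed between groups, and TLE3, BCL9 and TLE4 were lower. LEF1, TCF7L1 and TLE2 stayed below 1 TPM on average, did not enter the tests, and have values only. LEF1 (ENSG00000138795) lies at chr4:108047545-108168956, TCF7L1 (ENSG00000152284) at chr2:85133410-85310388 and TLE2 (ENSG00000065717) at chr19:2997638-3047635. The remaining 7 passed the filter, a mean of at least 1 TPM over the 6 libraries of an arm, in both arms.

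**Figure D1:**
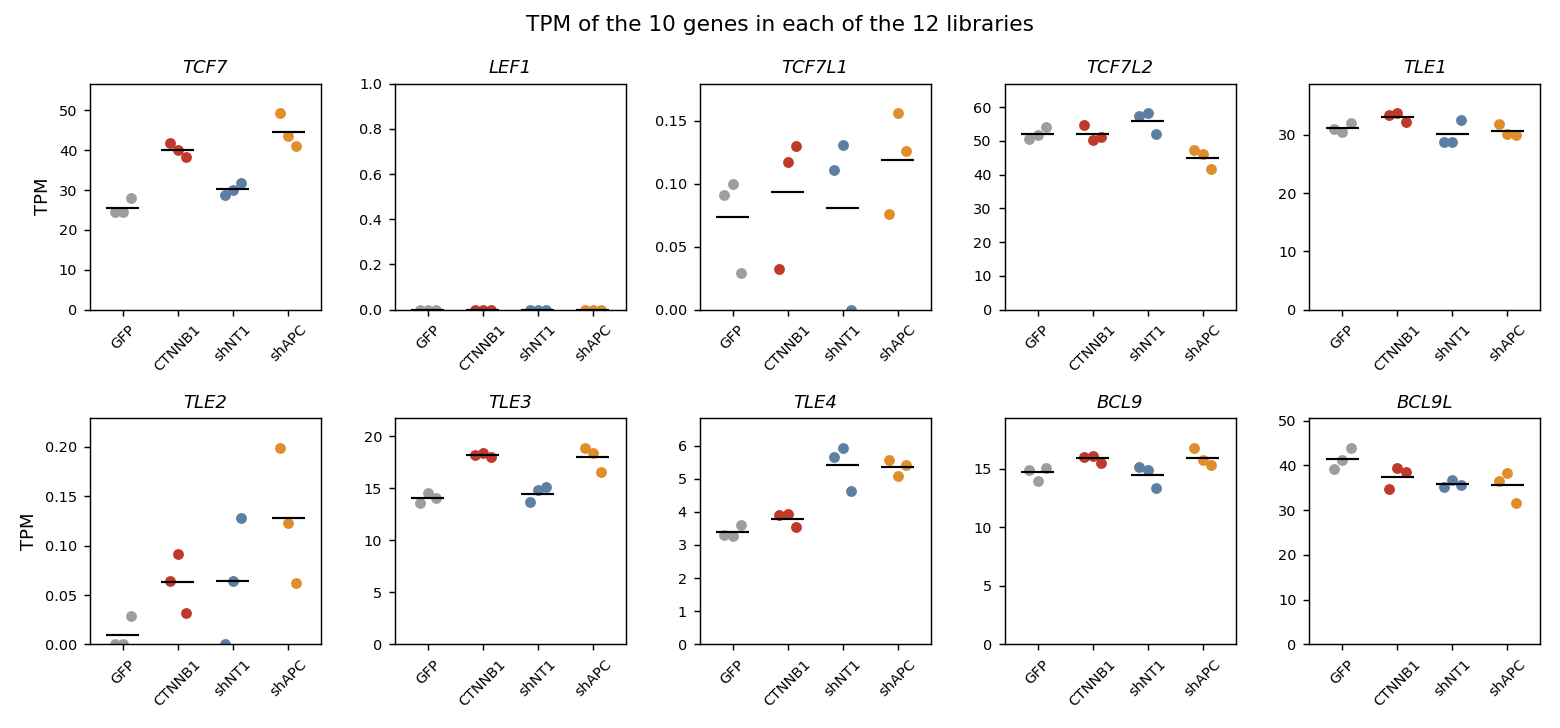
Each panel shows 1 gene, with TPM on a linear axis that starts at 0 and has its own range. Points are single libraries, 3 per group, and lines are group means. TCF7 and TLE3 lie higher in CTNNB1 and shAPC than in the matching controls without overlap, TCF7L2 lies lower in shAPC than in shNT1, and LEF1 is at 0 in all 12 libraries.

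All positions are from GENCODE v29 on GRCh38, the build the submitters' processing notes call hg38. TCF7 (ENSG00000081059) lies at chr5:134114711-134151865 on the plus strand, and GENCODE lists 14 protein-coding transcripts for it with 11 different starts. TCF7L2 (ENSG00000148737) lies at chr10:112950250-113167678 on the plus strand, with 21 protein-coding transcripts and 15 starts. TLE3 (ENSG00000140332) lies at chr15:70047790-70098176 on the minus strand, with 17 protein-coding transcripts and 16 starts. TLE1 (ENSG00000196781) lies at chr9:81583683-81689305, on the same chromosome as TLE4 (ENSG00000106829) at chr9:79571773-79726882. BCL9 (ENSG00000116128) lies at chr1:147541412-147626216 and BCL9L (ENSG00000186174) at chr11:118893875-118925608. Short forms of TCF7 and TCF7L2 that lack the beta-catenin-binding end are known. A gene-level TPM adds all forms together, so the values below do not tell which form changed.

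RefSeq promoter windows, the 250 bases before a transcript start, were found for 9 of the 10 genes, 16 windows in all. They were searched on both strands for CTTTGA, which reads TCAAAG on the other strand. It is 1 form of the core that TCF/LEF proteins bind, and other forms, such as CTTTGT, were not searched. It occurred in 2 of the 16 windows, both of TLE4, and in 11.2% of the 35116 windows of all genes. A window of TCF7 and a window of TCF7L2 are shown because the first gene rose in both arms and the second fell in one. Both windows avoid the exons that GENCODE lists for the gene. The windows of TCF7 lie inside the gene as GENCODE draws it, which begins at 134114711, so the bases before that position were not searched. The sites of TLE4, a gene that was not called in either arm, are shown because they were the only matches. Whether matches go with changes in expression was not tested. Sequences are from RefSeq on GRCh38.p14, on the strand of the gene, with the match in capitals and no capitals where there is none.
TCF7, before an internal start, chr5:134123368-134123617, plus strand: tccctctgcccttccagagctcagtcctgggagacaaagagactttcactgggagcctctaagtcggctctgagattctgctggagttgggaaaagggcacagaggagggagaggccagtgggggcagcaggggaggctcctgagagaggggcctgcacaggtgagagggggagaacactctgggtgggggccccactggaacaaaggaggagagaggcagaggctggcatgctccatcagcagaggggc
TCF7L2, before its first start, chr10:112949997-112950246, plus strand: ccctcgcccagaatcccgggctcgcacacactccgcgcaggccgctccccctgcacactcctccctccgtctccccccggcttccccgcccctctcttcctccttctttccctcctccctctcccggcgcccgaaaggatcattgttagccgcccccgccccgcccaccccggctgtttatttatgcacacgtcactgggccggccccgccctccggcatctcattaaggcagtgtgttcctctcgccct
TLE4, before the first RefSeq start, chr9:79571934-79571963, plus strand: tgctaaatttggTCAAAGaagtcacctaca
TLE4, before the second RefSeq start, chr9:79573051-79573080, plus strand: tcttattgttgtCTTTGAagcccctggaag
The first TLE4 window lies partly inside the gene as GENCODE draws it, which begins at 79571773, and overlaps an exon and UTR there, while the second overlaps no exon of the gene. The match in the first TLE4 window begins 19 bases before the start and that in the second 114 bases before it. A match describes letters only, and its absence says only that these letters are not in these windows.

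TCF7, which encodes TCF-1, rose in both arms. In the GFP libraries it measured 24.5, 24.5 and 27.9 TPM, and in the CTNNB1 libraries 41.9, 40.0 and 38.2 TPM. Every CTNNB1 library lay above every GFP library. In bulk RNA, a change in the number of cells of a type and a change in RNA per cell cannot be told apart, here and for every result that follows. The means were 25.6 ± 2.0 and 40.0 ± 1.8 TPM (SD, n = 3 each), a log2 fold change of TPM + 1 of 0.63 (SE 0.07, limma adjusted p = 0.000189). In the shNT1 libraries TCF7 measured 28.8, 30.1 and 31.7 TPM, and in the shAPC libraries 49.3, 43.6 and 41.0 TPM. Again the groups did not overlap. The means were 30.2 ± 1.5 and 44.6 ± 4.2 TPM (SD, n = 3 each), with a log2 fold change of 0.54 (SE 0.07, limma adjusted p = 0.000771).

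The rise of TCF7 amounted to 54.4% in the CTNNB1 arm and 45.9% in the shAPC arm on the TPM + 1 scale. AXIN2 rose 2.05-fold and 3.02-fold on the same scale. Ranked by fold, TCF7 was number 237 of 1898 genes called higher in the CTNNB1 arm and number 237 of 857 in the shAPC arm. The effects of the arms on TCF7 differed by 0.08 (SE 0.10, 95% interval -0.14 to 0.30, limma adjusted p = 0.616), and the sign of this difference turned under other scalings. In the authors' deposited tables TCF7 has log2 fold changes of 0.572 (adjusted p = 0.00225) and 0.603 (adjusted p = 0.00307). The highest group mean was that of shAPC, and its libraries overlapped in range with those of CTNNB1, while CTNNB1, shNT1 and GFP were separated in that order.

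TCF7L2, which encodes TCF-4, behaved differently in the arms as TPM was deposited. It measured 50.5, 51.6 and 54.0 TPM in GFP and 54.7, 50.3 and 51.1 TPM in CTNNB1. These groups overlapped fully, and both means were 52.0 TPM (SD 1.8 and 2.4, n = 3 each). With limma, the log2 fold change of -0.0009 (SE 0.05) had a 95% interval from -0.12 to 0.12 and an adjusted p of 0.992. Under median-ratio scaling it was -0.0739 (limma adjusted p = 0.239). The authors' deposited table for CTNNB1 gives -0.0754 (limma adjusted p = 0.167).

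In the hairpin arm TCF7L2 measured 57.3, 58.2 and 51.9 TPM in shNT1 and 47.2, 46.0 and 41.6 TPM in shAPC. The highest shAPC library was lower than the lowest shNT1 library, and lower than the 6 libraries of the other arm. The means were 55.8 ± 3.4 and 44.9 ± 2.9 TPM (SD, n = 3 each), so TCF7L2 fell by 19.1% (log2 fold change -0.31, SE 0.07, limma adjusted p = 0.0104). In size this was number 899 of the 1758 falls called in that arm. In the authors' deposited table for APC its log2 fold change is -0.273 with an adjusted p of 0.0766, which does not pass 0.05.

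The difference between the arms was 0.31 for TCF7L2 (CTNNB1 effect minus shAPC effect, log2, SE 0.09, limma adjusted p = 0.0311). It was the only 1 of the 7 tested members called in that contrast, where 16.1% of 11741 genes were called, 13.3% with a positive and 2.76% with a negative difference. The arms also differ in vector, collection day and doxycycline, and their parts in this difference cannot be told apart. The call depended on scaling. With median-ratio scaling, which removes a shift common to all genes, the difference was 0.19 (limma adjusted p = 0.131), and with quantile normalization it was 0.19 (adjusted p = 0.144). The median difference of all genes was 0.108 as deposited and 0.00386 after median-ratio scaling. The call was also lost when CTNNB1 replicate 1, GFP replicate 1 or 2, shAPC replicate 3, or shNT1 replicate 1 or 2 was left out, with values between 0.25 and 0.30 and limma adjusted p between 0.0554 and 0.0806.

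**Figure D2:**
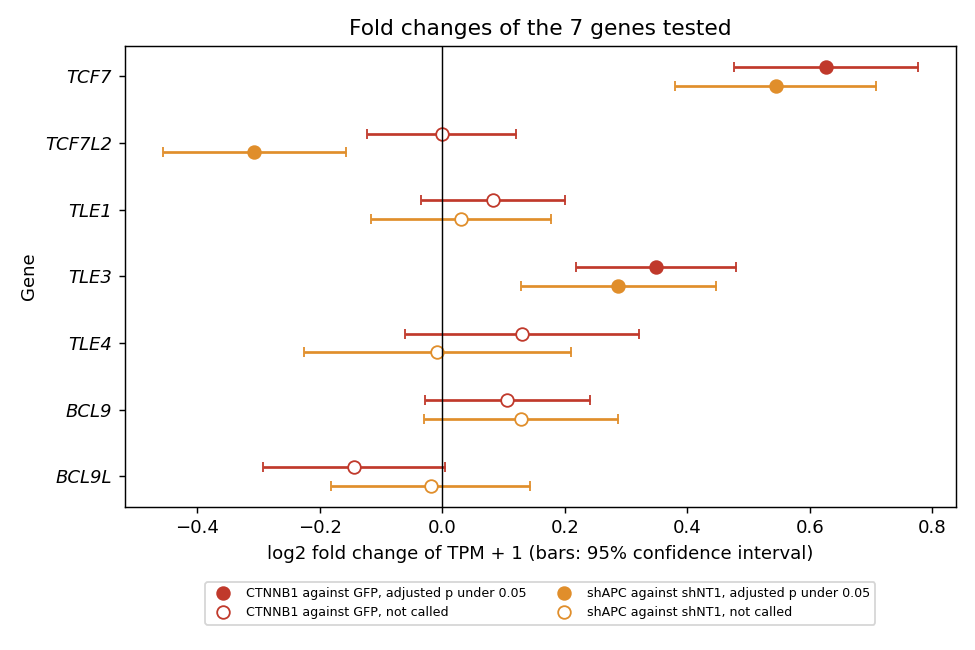
Log2 fold changes of TPM + 1 for the 7 genes tested, in red for CTNNB1 against GFP and in orange for shAPC against shNT1, with 95% confidence intervals from limma. Filled points passed an adjusted p of 0.05: TCF7 and TLE3 in both arms and TCF7L2 in the shAPC arm.

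LEF1, the fourth factor and a gene often raised by WNT signalling, was listed at 0 TPM in all 12 libraries. In the authors' deposited table for CTNNB1 it shares the lowest mean expression with 9451 of 28008 rows, LEF1 included. The row of its antisense gene LEF1-AS1 was also at 0 throughout. TCF7L1, which encodes TCF-3, a member known mainly as a repressor, lay between 0 and 0.156 TPM. Its group means ran from 0.0733 TPM in GFP to 0.119 TPM in shAPC, and all groups overlapped. The test genes ACTB, GAPDH, EEF1A1, RPLP0, TBP and POLR2A were above 0 in every library.

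TCF7 made up a larger share of the factor pool in the perturbed libraries of both arms. In the CTNNB1 arm TCF7L2 itself averaged 52.0 TPM in both groups, so its smaller share there follows from the rise of TCF7. TCF7 made up 32.6%, 32.1% and 34.1% of the summed TCF/LEF TPM in GFP and 43.3%, 44.3% and 42.8% in CTNNB1. It made up 33.4%, 34.1% and 38.0% in shNT1 and 51.1%, 48.6% and 49.6% in shAPC. In both arms the perturbed libraries all lay above the controls. TCF7L2 made up almost all of the rest, since TCF7L1 never exceeded 0.173%.

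The ratio of TCF7 to TCF7L2 does not change when all genes of a library are multiplied by the same number, as in median-ratio scaling. It averaged 0.492 ± 0.022 in GFP, 0.77 ± 0.024 in CTNNB1, 0.544 ± 0.059 in shNT1 and 0.993 ± 0.049 in shAPC (SD, n = 3 each). Both factors were thus at similar levels in shAPC, where their ranges overlapped. The sum of the factors averaged 77.7 ± 3.7 TPM in GFP and 92.2 ± 3.9 TPM in CTNNB1, without overlap. In the hairpin arm the sums overlapped, with 89.7 ± 6.9 TPM for shAPC against 86.1 ± 2.4 TPM for shNT1 (SD, n = 3 each). Shares, ratios and sums are descriptions and were not tested.

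**Figure D3:**
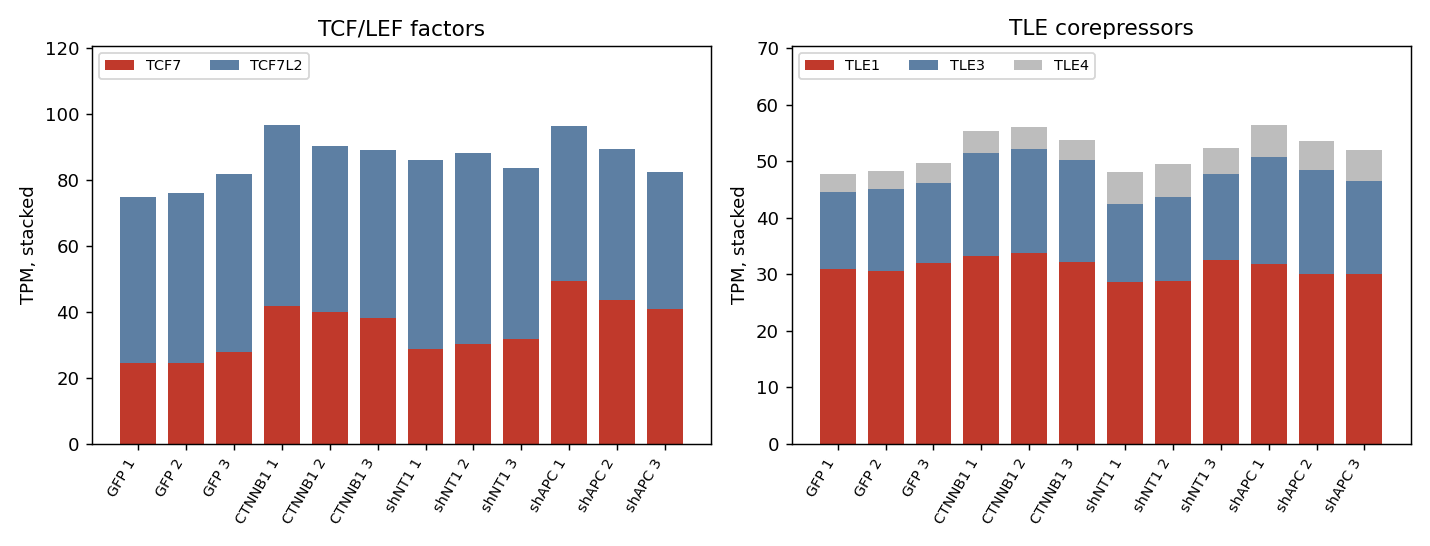
Stacked TPM of the expressed factors (left) and corepressors (right) in each library, on linear axes from 0. The TCF7 part of the left bars grows in CTNNB1 and shAPC, and in shAPC it is close in height to the TCF7L2 part. TLE1 is the tallest part of the right bars in all 12 libraries.

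TLE3 was the only corepressor of the 3 tested that was called, and it rose in both arms. TLE proteins, the Groucho family, bind TCF/LEF factors and recruit histone deacetylases. TLE3 measured 13.6, 14.6 and 14.1 TPM in GFP and 18.2, 18.4 and 18.0 TPM in CTNNB1. The groups did not overlap, and the means were 14.1 ± 0.48 and 18.2 ± 0.23 TPM (SD, n = 3 each). This is a log2 fold change of 0.35 (SE 0.06, limma adjusted p = 0.00262).

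In the hairpin arm TLE3 measured 13.7, 14.8 and 15.1 TPM in shNT1 and 18.9, 18.4 and 16.6 TPM in shAPC. The groups were again apart, with means of 14.5 ± 0.73 and 18.0 ± 1.2 TPM (SD, n = 3 each) and a log2 fold change of 0.29 (SE 0.07, limma adjusted p = 0.0183). This call was lost without shAPC replicate 1 (0.25, limma adjusted p = 0.0589), without shAPC replicate 2 (0.27, adjusted p = 0.0685) and without shNT1 replicate 1 (0.25, adjusted p = 0.0709). The authors' deposited tables give TLE3 log2 fold changes of 0.301 (adjusted p = 0.00763) and 0.348 (adjusted p = 0.00953). The arms' effects on TLE3 differed by 0.06 (SE 0.09, 95% interval -0.13 to 0.25, limma adjusted p = 0.662), with a sign that turned under other scalings.

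TLE1 was the most abundant corepressor in every group. It measured 30.9, 30.5 and 32.0 TPM in GFP, 33.3, 33.7 and 32.2 TPM in CTNNB1, 28.7, 28.8 and 32.6 TPM in shNT1, and 31.9, 30.1 and 30 TPM in shAPC. All CTNNB1 libraries lay above the GFP libraries, by a narrow margin, and the hairpin groups overlapped. Its log2 fold changes were 0.08 (SE 0.05, limma adjusted p = 0.278) and 0.03 (SE 0.07, adjusted p = 0.78). The 95% intervals ran from -0.03 to 0.20 and from -0.12 to 0.18.

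TLE4 measured 3.29, 3.26 and 3.59 TPM in GFP and 3.89, 3.93 and 3.55 TPM in CTNNB1. In the hairpin arm it measured 5.64, 5.93 and 4.63 TPM in shNT1 and 5.55, 5.08 and 5.40 TPM in shAPC. Both pairs of groups overlapped, and its log2 fold changes were 0.13 (SE 0.09, limma adjusted p = 0.299) and -0.0077 (SE 0.10, adjusted p = 0.963). TLE4 was the only 1 of the 10 genes whose ranges in the 2 arms were apart. It spanned 3.26 to 3.93 TPM in the open reading frame arm and 4.63 to 5.93 TPM in the hairpin arm. The share of all genes with ranges apart in this way was not counted. Vector, collection day and doxycycline differ between the arms and cannot be told apart here. TLE2 stayed between 0 and 0.199 TPM, and 3 of its 12 values were 0.

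Within the corepressor pool TLE3 made up 28.5%, 30.1% and 28.3% of the summed TLE TPM in GFP and 32.9%, 32.8% and 33.4% in CTNNB1. Its share was 28.5%, 29.8% and 28.7% in shNT1 and 33.4%, 34.3% and 31.9% in shAPC. The perturbed libraries lay above the controls in both arms, and the share of TLE1 lay below them in both. The summed TLE level was 0.626 ± 0.016 times the summed TCF/LEF level in GFP and 0.599 ± 0.023 times in CTNNB1. It was 0.582 ± 0.04 times in shNT1 and 0.604 ± 0.023 times in shAPC (SD, n = 3 each), and the groups overlapped in both arms. The balance of the 2 pools thus showed no separation between perturbed and control libraries, while the makeup of each pool did.

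The coactivators BCL9 and BCL9L were not called in either arm. BCL9 measured 14.9, 14.0 and 15.1 TPM in GFP and 16.0, 16.1 and 15.5 TPM in CTNNB1. It measured 15.2, 14.9 and 13.4 TPM in shNT1 and 16.8, 15.8 and 15.3 TPM in shAPC. The perturbed libraries lay above the controls in both arms, but neither difference passed the test, since the log2 fold changes were 0.11 (SE 0.06, limma adjusted p = 0.229) and 0.13 (SE 0.07, adjusted p = 0.224). The 95% intervals ran from -0.03 to 0.24 and from -0.03 to 0.29.

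BCL9L, the paralog of BCL9, was the more abundant coactivator, with 2.06 to 2.94 times the TPM of BCL9 over the 12 libraries. It measured 39.1, 41.2 and 43.9 TPM in GFP and 34.6, 39.3 and 38.4 TPM in CTNNB1, and these groups overlapped. The log2 fold change of -0.14 (SE 0.07) had a 95% interval from -0.29 to 0.005 and a limma adjusted p of 0.146. In the hairpin arm it measured 35.1, 36.8 and 35.6 TPM in shNT1 and 36.6, 38.3 and 31.6 TPM in shAPC, with a log2 fold change of -0.02 (SE 0.07, adjusted p = 0.877). The sign of that last value turned under median-ratio scaling and quantile normalization.

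Counted together, 2 of the 7 tested members were called by limma in the CTNNB1 arm, both higher, where 23.5% of 11624 genes were called, 16.3% higher and 7.16% lower. In the shAPC arm 3 of 7 were called, 2 higher and 1 lower, where 22.1% of 11834 genes were called, 7.24% higher and 14.9% lower. TCF7 and TLE3 were called higher in both arms, as were 4.08% of the 11556 genes tested in both, and 3.24% were called lower in both. The median log2 fold change of the 7 was 0.106 in the CTNNB1 arm and 0.0303 in the shAPC arm, against 0.0573 and -0.045 over all genes tested. Higher calls made up 69.5% of all calls in the CTNNB1 arm and 32.8% in the shAPC arm as deposited, but 46.1% and 44.3% under median-ratio scaling. TCF7, TLE3 and, in the shAPC arm, TCF7L2 kept their direction and their call under both scalings.

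Groups did not overlap for 4 of the 7 members in the CTNNB1 arm (TCF7, TLE1, TLE3 and BCL9, all higher), where 43.2% of genes did not overlap, 30.2% above and 13% below the controls. In the shAPC arm this held for 4 of 7 as well (TCF7, TLE3 and BCL9 higher, TCF7L2 lower), where the share of all genes was 40.9%, 14.5% above and 26.4% below. Overlap was read on TPM as deposited. With median-ratio scaling the CTNNB1-arm log2 fold changes of TLE1 and BCL9 went from 0.083 to 0.0108 and from 0.1065 to 0.0367. That of BCL9 in the shAPC arm went from 0.1285 to 0.1687, and none of these was called. Within groups, GFP replicate 3 had the highest value for 6 of the 7 members. In CTNNB1, replicate 2 was highest for 5 and replicate 3 lowest for 5. In shAPC, replicate 1 was highest for 6 and replicate 3 lowest for 6, while in shNT1 replicate 3 was highest for 3 and lowest for 3. The same counts over all genes were not made, and the part of these orders in the fold changes was not tested.

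**Figure D4:**
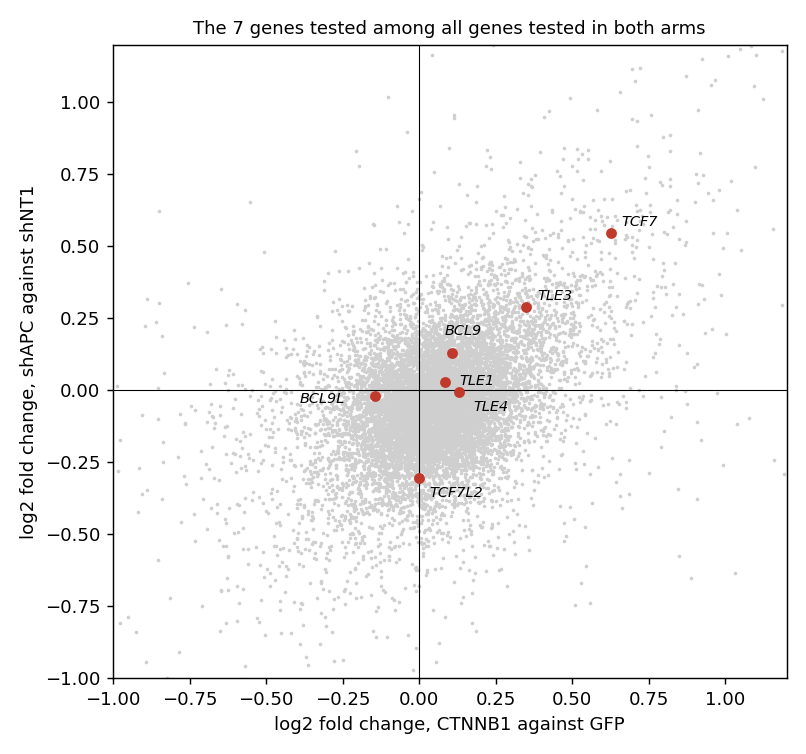
Log2 fold changes of TPM + 1 in the CTNNB1 arm (horizontal) and the shAPC arm (vertical) for genes tested in both arms, in grey, with the 7 members in red. The axes run from -1 to 1.2 and hold 11466 of 11556 genes. TCF7 and TLE3 lie at the upper right, TCF7L2 on the vertical axis below 0, and the other members near the centre.

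Other nuclear partners of the complex were taken from a list of 38 symbols, of which 35 were tested. That list, too, was chosen with earlier results of these data known. In the CTNNB1 arm 12 of the 35 were called higher and none lower by limma, and 16 had an unadjusted p under 0.05, where 16.3% of all genes were called higher and 7.16% lower. That count fell to 7 under median-ratio scaling, and to 6, 3 and 4 without CTNNB1 replicate 2, GFP replicate 1 and GFP replicate 2. In the shAPC arm 8 of the 35 were called, 3 higher and 5 lower, a share close to the 22.1% of all genes called there (7.24% higher and 14.9% lower). That count became 4, 5 and 4 without shAPC replicate 2, shAPC replicate 3 and shNT1 replicate 1. The partners had median log2 fold changes of 0.109 with CTNNB1 and -0.0491 with shAPC, against 0.0573 and -0.045 over all genes. SOX4, an HMG-box factor that can bind beta-catenin, had the largest change in both. It measured 90.8, 88.5 and 93.9 TPM in GFP against 159, 159 and 144 TPM in CTNNB1 (log2 fold change 0.75, SE 0.05, limma adjusted p = 2.48e-05). In shNT1 it measured 109, 109 and 97.2 TPM against 192, 187 and 177 TPM in shAPC (0.81, SE 0.06, adjusted p = 1.93e-05). All perturbed libraries lay above the controls in both arms.

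CTNNBIP1, an inhibitor that keeps beta-catenin from TCF/LEF factors, rose in the CTNNB1 arm, from a mean of 6.19 ± 0.81 to 9.3 ± 0.56 TPM (0.52 on the log2 scale, SE 0.10, limma adjusted p = 0.00408). In the hairpin arm its value was 0.13 (SE 0.12, adjusted p = 0.458). CBFA2T2, a corepressor of the ETO family, also rose in the CTNNB1 arm, where its mean went from 5.77 ± 0.55 to 7.71 ± 0.7 TPM (0.36, SE 0.09, limma adjusted p = 0.0187). CBFA2T2 was not called in the shAPC arm (0.16, SE 0.08, adjusted p = 0.164). The difference between the arms was not called for CTNNBIP1 (0.39, SE 0.16, limma adjusted p = 0.109) or CBFA2T2 (0.20, SE 0.12, adjusted p = 0.27). LDB1, an adaptor reported in the beta-catenin enhancer complex, rose in the shAPC arm from 20.3 ± 0.51 to 26.8 ± 2.0 TPM (0.38, SE 0.07, adjusted p = 0.00324) and in the CTNNB1 arm from 18.7 ± 1.1 to 23.0 ± 0.58 TPM (0.28, SE 0.06, adjusted p = 0.0106). SSBP2, a partner of LDB1, fell in the shAPC arm from 2.4 ± 0.37 to 1.34 ± 0.12 TPM (-0.53, SE 0.12, adjusted p = 0.0127). In the CTNNB1 arm SSBP2 was also lower without overlap, at 1.43 ± 0.057 against 1.8 ± 0.21 TPM in GFP. It was not called there (-0.21, SE 0.10, limma adjusted p = 0.18), except under quantile normalization (-0.34, adjusted p = 0.0435). Its difference between the arms was not called (0.33, SE 0.15, adjusted p = 0.153). All means are over n = 3 with SD. By limma the call of CBFA2T2 was lost without CTNNB1 replicate 2 (adjusted p = 0.0547), GFP replicate 1 (0.0773) or GFP replicate 2 (0.0656), and, with all libraries, when no filter on low values was used (0.0583). The call of LDB1 in the CTNNB1 arm was lost without GFP replicate 1 (limma adjusted p = 0.0541), and that of SSBP2 without shAPC replicate 2 (0.0524).

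The PYGO coactivators bind BCL9 and BCL9L. PYGO1 was listed at 0 TPM in all 12 libraries, and PYGO2 lay between 34.3 and 41.4 TPM. PYGO2 averaged 36.2 ± 0.37 TPM in GFP, 39.2 ± 0.25 in CTNNB1, 40.4 ± 1.6 in shNT1 and 36.0 ± 1.9 in shAPC (SD, n = 3 each). It was not called in either arm (0.11, limma adjusted p = 0.126, and -0.16, adjusted p = 0.0824). Without overlap, its libraries lay above GFP in CTNNB1 and below shNT1 in shAPC. Tested directly, the CTNNB1 effect minus the shAPC effect on PYGO2 was 0.27 and passed (limma adjusted p = 0.023). Under median-ratio scaling it was 0.16 and did not pass (adjusted p = 0.0869). AES, a short TLE relative that lacks the repeats of the full-length proteins, was more abundant than all TLE genes together, at 2.94 to 4.0 times their sum. It averaged 152 ± 11 TPM in GFP and 174 ± 3 TPM in CTNNB1 (0.20, SE 0.06, limma adjusted p = 0.0336), a call that median-ratio scaling removed (0.12, adjusted p = 0.167). Leaving out GFP replicate 1 or 2, or CTNNB1 replicate 2 or 3, also removed it, with limma adjusted p between 0.0647 and 0.132. In shAPC it averaged 181 ± 7.6 TPM against 192 ± 0.9 TPM in shNT1 (-0.08, limma adjusted p = 0.249). AES, too, was called in the contrast between the arms (0.28, limma adjusted p = 0.0229), again not under median-ratio scaling (0.17, adjusted p = 0.138). In that contrast 6 of the 35 partners tested were called, all positive, against 16.1% of all genes, 13.3% positive and 2.76% negative. Of these 6, only TNIK kept its call under median-ratio scaling. Its difference was 0.47 as deposited (limma adjusted p = 0.00726) and 0.36 after scaling (adjusted p = 0.00993).

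A list of 16 WNT target genes gives the state of the pathway beside these values. Of the 14 tested, 12 were called higher by limma and none lower in each arm, where 16.3% of all genes were called higher in the CTNNB1 arm and 7.24% in the shAPC arm. The targets' median log2 fold changes were 1.07 and 1.19, against 0.0573 and -0.045 over all genes. The list was assembled with earlier results of these data known, so its direction is not independent evidence.

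The genes most like 3 members over the 12 libraries were taken by the root mean square difference of log2(TPM + 1), each gene centred on its own mean. Among 9438 genes with a mean of at least 5 TPM, those nearest to TCF7 were DUSP16 (0.0685), TXNIP (0.0815) and LRIG1 (0.083). DUSP16, a MAP kinase phosphatase, averaged 14.7 TPM in GFP, 23.3 in CTNNB1, 18.3 in shNT1 and 27.2 in shAPC. The genes nearest to TLE3 were FAM53C (0.0519), KLF11 (0.0531) and PAM (0.0564), and those nearest to TCF7L2 were ZDHHC3 (0.0478), PLEKHA1 (0.0495) and SMARCA2 (0.0559). PLEKHA1 averaged 51.7 TPM in GFP, 50.6 in CTNNB1, 56.2 in shNT1 and 45.3 in shAPC, the same order of groups as TCF7L2. The libraries share their groups, so this likeness describes the pattern of group means more than that of single libraries.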

How the data were processed

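The 12 HT-29 libraries were made from total RNA with an mRNA library kit, per the labels' protocols. Reads were aligned to hg38 with STAR 2.7.3a, per the submitters' processing notes, while the counting step and annotation are not given in the sources used here. The authors deposited a TPM table. They also deposited a limma table per comparison with log2 fold changes and mean log2 values, p-values and adjusted p-values, per the file headers. The authors' table for APC runs as shAPC minus shNT1, since the log2 fold change of APC in it is -1.41.

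Each arm was fitted separately (limma 3.58.1, R 4.3.3) to log2 values of TPM plus a pseudocount of 1, with a mean-variance trend, for genes with a mean of at least 1 TPM. Benjamini-Hochberg adjustment ran over all genes tested, and a gene was called at an adjusted p under 0.05. The pseudocount shrinks the fold changes of genes with low TPM. The contrast between the arms used all 12 libraries. Fits were tested on simulated data. The members and lists were chosen with earlier results of these data known. All members are named, and of the partner list the 3 largest called changes per arm, PYGO1, PYGO2, AES and TNIK. The settings also tried were median-ratio scaling, a mean of 5 TPM or no filter, a pseudocount of 0.1, quantile normalization, no trend, a replicate block, an adjusted p under 0.01, one fit of all groups and leaving out each library.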

Additional observations from a re-analysis of the deposited data

Results flagged for a closer look

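TCF7L2 is listed here because the effects of the CTNNB1 vector and of shAPC on it differed when that difference was tested directly (0.31 on the log2 scale, SE 0.09, limma adjusted p = 0.0311). The difference was higher than 0 in the fit of all 12 libraries and in every alternative run, with values from 0.19 to 0.36. It was not called under median-ratio scaling (0.19, adjusted p = 0.131), and the part of the common shift between the arms in it was not tested further. TLE4 lay at a different level in the 2 arms whatever the perturbation, and that level was not tested, since vector, day and doxycycline differ. The share of all genes with arms apart in this way was not counted.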

How the results depend on the processing

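TCF7 kept its direction and its call in both arms, and TLE3 in the CTNNB1 arm, under all alternatives run. At an adjusted p under 0.01 the genes called numbered 1253, 1151 and 628 in the CTNNB1 arm, the shAPC arm and the contrast between them, and the members called in the shAPC arm fell to 1, TCF7. Between the arms, 0 members were called by limma with no filter, median-ratio scaling, quantile normalization or an adjusted p under 0.01. When 1 library was left out, this count was 0 to 1, and the genes called ranged from 1499 (without GFP replicate 2) to 3190 in the CTNNB1 arm, from 1484 (without shAPC replicate 3) to 2252 in the shAPC arm, and from 995 (without GFP replicate 2) to 2143 between the arms.

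With the replicate number as a block, 1145 genes were called between the arms instead of 1885, 2895 in the CTNNB1 arm and 1767 in the shAPC arm, and no member's call changed. For correlations, each gene's group mean was first subtracted from its log2(TPM + 1), so they compare deviations within groups, not whole profiles. Those of same-numbered libraries were 0.216, 0.0697 and 0.115 in the CTNNB1 arm and -0.146, -0.00638 and -0.206 in the shAPC arm. The numbers were thus not taken to pair the libraries. In the CTNNB1 arm every library correlated best with its own number, which is a hint from the data and not from the design.

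Signs turned only for values that were not called. With median-ratio scaling and quantile normalization, the differences between the arms became -0.0279 and -0.0635 for TCF7, -0.0573 and -0.0814 for TLE1, and -0.0447 and -0.0817 for TLE3. In the shAPC arm BCL9L became 0.0231 and 0.0576, CTNNB1 0.0389 and 0.0777, and TLE4, with median-ratio scaling, 0.0281. Leaving out 1 library gave -0.0373 to 0.0252 for TCF7L2 in the CTNNB1 arm. In the shAPC arm it gave -0.0014 to 0.0894 for TLE1, -0.0973 to 0.0523 for TLE4, -0.0742 to 0.0604 for BCL9L and -0.0285 to 0.043 for CTNNB1. Between the arms it gave -0.0064 to 0.0844 for TLE1 and -0.0541 to 0.0295 for BCL9.

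Of the partner list, 12 genes called in the CTNNB1 arm became 6 with no filter and 7 with median-ratio scaling or no trend. The 8 called in the shAPC arm became 5 with no filter or with the block. The 12 targets called in the CTNNB1 arm became 7 with a mean of at least 5 TPM, where fewer were tested. The cause of the other changes was not tested. Sequencing depth cannot be read from TPM, so what depth limits for LEF1, TCF7L1 and TLE2 is unknown.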
